A study of Homo sapiens with 36 samples.

Results

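The genes described here are 10 genes of the unfolded protein response (UPR) and of the channel through which proteins enter the endoplasmic reticulum (ER), measured in MEC-1 cells, an established human B-cell line from chronic lymphocytic leukaemia. They are the sensors ERN1 and ATF6, the transcription factor XBP1, the chaperones HSPA5, HSP90B1, DNAJB9, SDF2L1 and PDIA4, the degradation factor HERPUD1 and the translocon subunit SEC61B. Each gene was found by its symbol in the array's own table of gene names, taking array units with a single symbol, and each of the 10 genes had exactly 1 such unit. They are 10 of 33616 different single symbols, on an array of 135750 units.

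The data were 36 Affymetrix arrays, with RNA signal given as a log2 value per unit. Cells were exposed by gymnosis, that is with no transfection reagent, to LNA gapmers, chemically modified antisense strands whose RNA target is cut by RNase H. Each gapmer was given at 1 µM for 4 days. The 3 experiments were aimed at the long non-coding RNAs CYTOR (LINC00152 in some labels), LINC00158 or RP11-161H23.5. In each one there was a gapmer 1 group, a gapmer 2 group, a group with both (gapmer 1+2) and a group with a scrambled gapmer, with 3 arrays per group and 12 groups in all. All 12 groups were MEC-1 cells. The group with both gapmers may have received more oligonucleotide in total than the others. Whether replicate arrays stem from different cultures is not in the labels, so p-values measure the spread between these arrays, which may be technical.

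The UPR is the response of a cell to unfolded protein in the ER. ERN1 (IRE1 alpha) splices the XBP1 messenger RNA, which then encodes an active transcription factor, and ATF6 is cut in the Golgi to release another. Both factors act on ER stress response elements in the promoters of chaperone genes and of XBP1 itself, and the PERK branch slows translation in parallel. In the B-cell lineage XBP1 is needed for plasma cells, which secrete large amounts of antibody.

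The stretches of promoter below are shown because 5 of the 10 genes carry a published ER stress response element there, spelled out exactly. SEC61B is shown as well, as it lacks a match and had the largest LINC00158 changes among the 10 units used. That ranking leaves out a bright unit that lists HSP90B1 together with MIR3652. Its LINC00158 means fell from 14.62 (scrambled) to 13.10, 12.15 and 12.22 (single gapmers first, then both together). SEC61B fell from 10.79 to 8.59, 8.39 and 8.63 in the same order. HSP90B1 carries matches, so the contrast depends on which unit stands for it. Sequences are RefSeq's (GRCh38.p14), the 250 bases before the annotated transcript start on the gene's strand. Capitals mark matches to ERSE (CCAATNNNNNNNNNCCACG, either strand) or ERSE-II (ATTGG, then any base, then CCACG, either strand). XBP1 has a pair of annotated starts, and the window with the match is given.
HSPA5, chr9:125241344-125241593 (minus strand): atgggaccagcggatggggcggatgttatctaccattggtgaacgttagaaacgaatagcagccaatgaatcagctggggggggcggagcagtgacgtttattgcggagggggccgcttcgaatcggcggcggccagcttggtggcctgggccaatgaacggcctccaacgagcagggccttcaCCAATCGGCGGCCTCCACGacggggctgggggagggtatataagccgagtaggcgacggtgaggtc
XBP1, chr22:28800570-28800819 (minus strand): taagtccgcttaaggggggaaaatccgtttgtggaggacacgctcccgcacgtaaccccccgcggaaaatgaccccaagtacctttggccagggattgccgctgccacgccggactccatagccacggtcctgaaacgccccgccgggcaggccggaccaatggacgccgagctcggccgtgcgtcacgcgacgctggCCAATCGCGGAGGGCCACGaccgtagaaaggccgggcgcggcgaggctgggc
HSP90B1, chr12:103930160-103930409 (plus strand): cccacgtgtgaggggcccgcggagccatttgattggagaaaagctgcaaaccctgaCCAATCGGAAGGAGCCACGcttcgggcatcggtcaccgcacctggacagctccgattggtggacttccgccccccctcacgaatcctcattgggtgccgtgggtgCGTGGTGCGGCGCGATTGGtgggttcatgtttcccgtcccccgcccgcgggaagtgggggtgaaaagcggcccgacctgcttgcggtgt
HERPUD1, chr16:56931892-56932141 (plus strand): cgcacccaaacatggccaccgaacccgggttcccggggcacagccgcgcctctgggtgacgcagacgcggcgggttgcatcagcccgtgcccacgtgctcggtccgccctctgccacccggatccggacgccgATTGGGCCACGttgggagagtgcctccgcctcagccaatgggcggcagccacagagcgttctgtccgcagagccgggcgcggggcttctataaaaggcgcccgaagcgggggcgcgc
SDF2L1, chr22:21642052-21642301 (plus strand): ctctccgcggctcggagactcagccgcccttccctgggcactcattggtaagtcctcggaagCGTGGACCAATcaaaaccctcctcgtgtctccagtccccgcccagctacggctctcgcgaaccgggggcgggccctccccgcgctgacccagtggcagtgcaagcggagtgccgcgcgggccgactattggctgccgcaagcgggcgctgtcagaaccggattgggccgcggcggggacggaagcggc
SEC61B, chr9:99222032-99222281 (plus strand): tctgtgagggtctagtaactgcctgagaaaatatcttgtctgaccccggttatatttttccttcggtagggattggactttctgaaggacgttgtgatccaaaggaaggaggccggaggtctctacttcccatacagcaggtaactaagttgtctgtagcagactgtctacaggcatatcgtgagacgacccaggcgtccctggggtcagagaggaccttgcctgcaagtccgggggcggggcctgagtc

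All 10 genes were found in the RefSeq promoter table, with 12 windows between them. ERSE was present in 26 of all 35116 promoter windows of this length (0.074%), and 3 of the 26 belonged to HSPA5, XBP1 and HSP90B1. HSP90B1 had 2 matches, 1 on each strand. ERSE-II was present in 18 of 35116 windows (0.0513%), among them those of HERPUD1 and SDF2L1. No exact match to either element lay in the windows of DNAJB9, PDIA4, ERN1, ATF6 and SEC61B. The core TGACGTGG (either strand), to which XBP1 and ATF6 can bind, was in 215 windows (0.612%) and in none of the 12. The 2 elements each contain CCAAT and CCACG on one strand or the other, so matches to those short words overlap them. CCAAT (either strand) alone was in 32% of all windows and CCACG (either strand) in 33.5%, and CCAAT was in the SEC61B window too. A match is a description of letters and says nothing of binding, and no match says only that these letters are not in the window. These published elements are known from promoters of chaperone genes and of XBP1, so the shares are no test of enrichment.

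A few facts of the arrays come before the values. The median log2 signal of an array lay between 3.82 and 4.09. Exactly shared values split the 36 arrays into 4 sets of 9, with every scrambled array in 1 set, and 1 set for the gapmer arrays of each target. Any 2 arrays of a set held the same value in 2.39% to 6.30% of 7583 bright units, and arrays of different sets in 0.105% to 0.870%. Every treated-against-scrambled value here therefore compares 2 sets, and set and treatment cannot be told apart, whereas comparisons between treatments, or of scrambled groups with each other, stay inside a set. The B-cell markers read bright (5 of 7 measured, means from 9.16 for PAX5 to 13.72 for CD74), whereas the 5 myeloid markers read 3.48 to 4.67, the 4 measured erythroid and platelet markers 3.37 to 4.55 and the 4 measured T-cell markers 3.32 to 6.75, the highest being CD3E. Of the 5 measured stromal and epithelial markers COL1A1 read 8.19 and the others 3.39 to 5.66. The unit named for CYTOR was higher, not lower, on the arrays labelled with CYTOR gapmers (log2 changes 1.59, 1.21 and 0.92 with gapmer 1, gapmer 2 and gapmer 1+2). The LINC00158 unit was lower on arrays labelled with its gapmers (log2 changes −2.36, −1.92 and −2.62), and also in the RP11-161H23.5 experiment (−1.15, −1.34 and −1.44). The CYTOR unit in turn was lower with LINC00158 gapmer 2 and gapmer 1+2 (−1.37 and −1.70, adjusted p = 0.0152 and 0.00799, and −0.97 with gapmer 1, not called) and with RP11-161H23.5 gapmer 2 (−0.99, adjusted p = 0.0435, and −0.39 and −0.46 with gapmer 1 and gapmer 1+2, not called). The CYTOR unit thus went against the labels of the CYTOR gapmer arrays, and the cause was not tested. The RP11-161H23.5 transcript itself was not analysed here, so its knockdown was not checked.

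The first array of the LINC00158 gapmer 1 group stood apart from its group. Its mean absolute log2 distance to its group mates was 0.634, and its distance to its own scrambled group was 0.526, against 0.684 and 0.740 for the other arrays of the group. The median over the 10 genes was 9.93 on that array, against 8.54 and 8.78 on its group mates and 10.02 to 10.14 on the scrambled arrays. Results of the LINC00158 experiment are given with and without it, an alternative chosen after seeing the data.

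Log2 signal of different units is not comparable between genes, so the levels below describe each gene only against itself. Over the 36 arrays the HSPA5 unit averaged 12.44 (range 11.11 to 14.19), the ERN1 unit 11.68 (10.09 to 12.98) and the DNAJB9 unit 10.23 (7.75 to 12.66). The units of ATF6, SEC61B, HERPUD1, XBP1 and PDIA4 averaged 9.90, 9.53, 9.49, 8.86 and 8.77. Those of SDF2L1 and HSP90B1 were dim, at 6.0 and 5.78, though all 10 passed the filter on low values. The HSP90B1 unit has no gene ID in the table. A second, bright unit there lists HSP90B1 together with MIR3652, so it was not named for either gene, and its mean was 13.41. HSP90B1 encodes an abundant ER chaperone, so the dim unit is a poor measure of it, and its values are given with that limit.

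**Figure D1:**
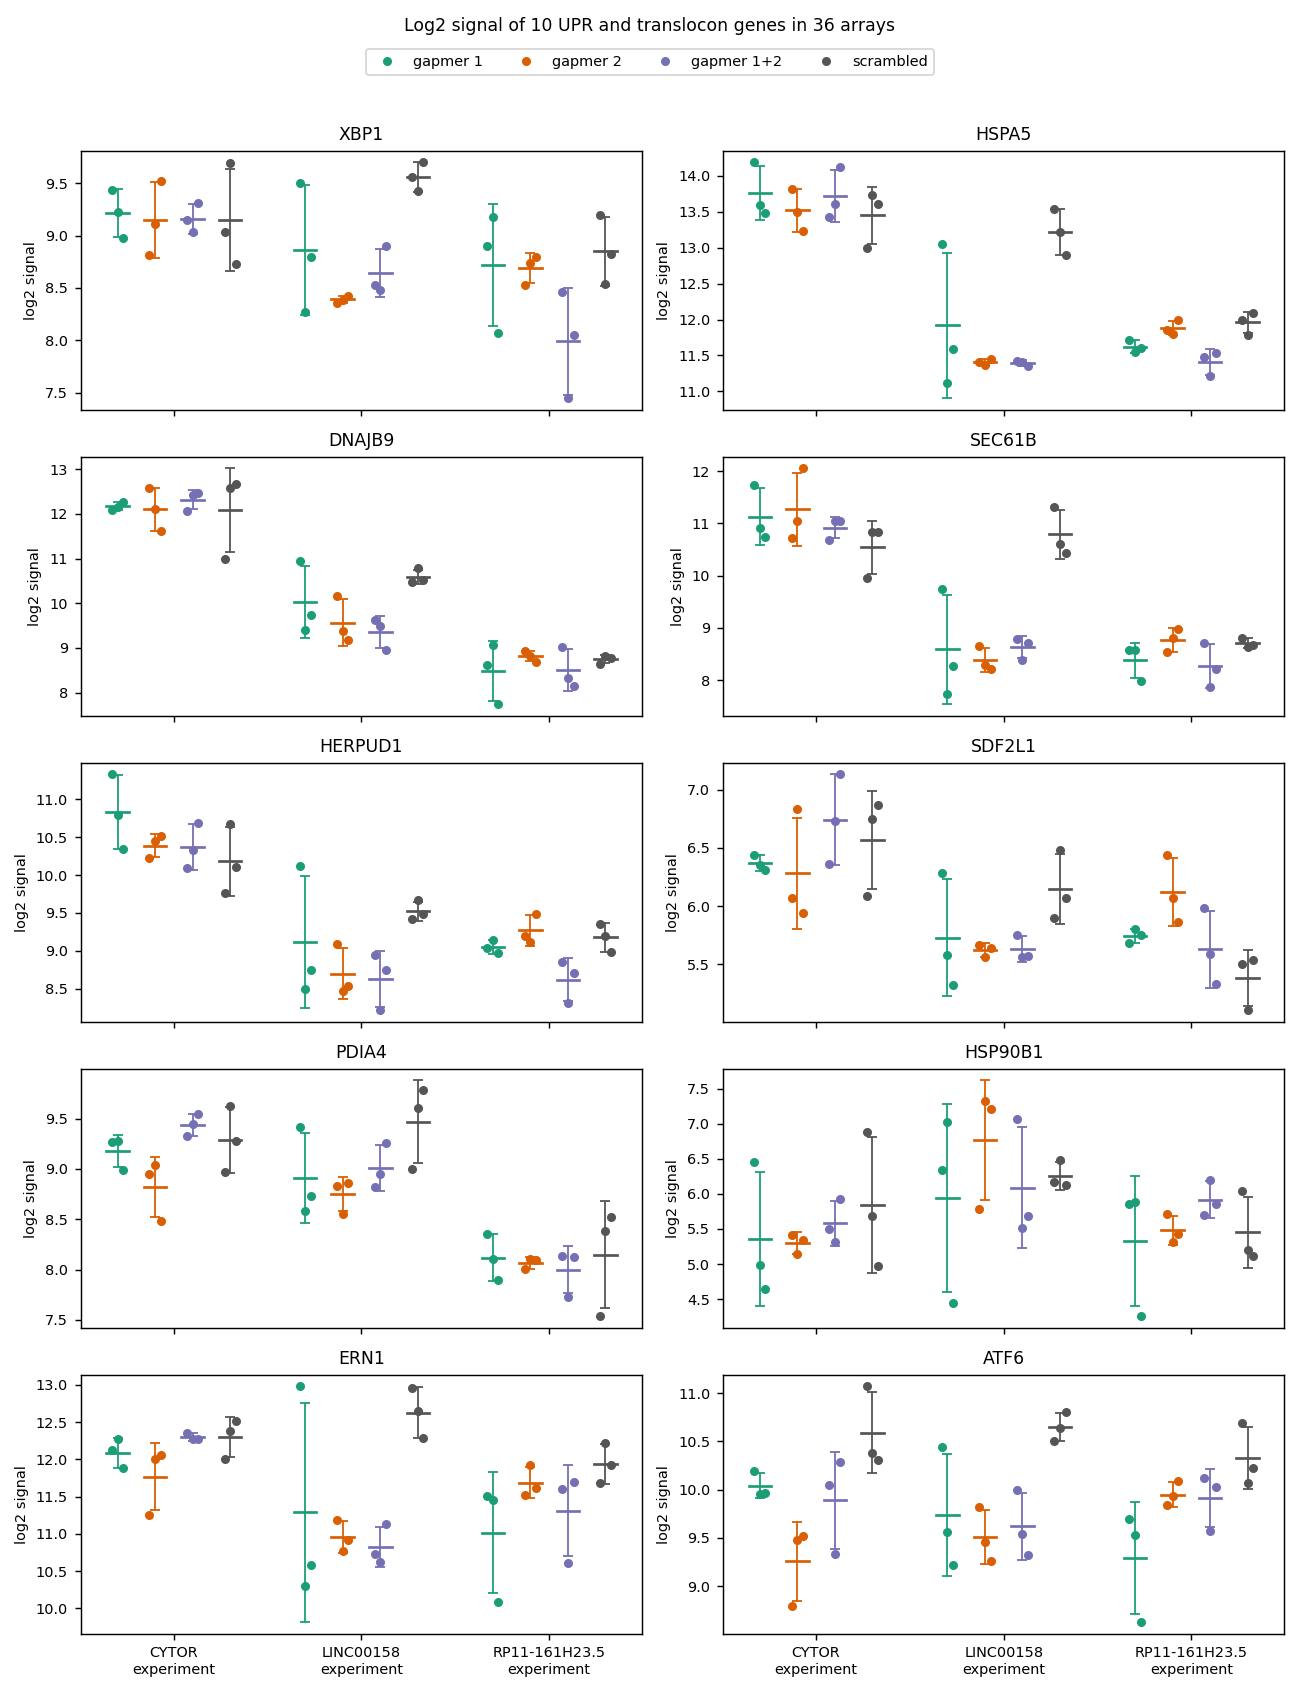
Log2 signal of the 10 genes on each of the 36 arrays, in panels by gene. Points are arrays, horizontal lines are group means and bars are ± 1 SD (n = 3), with gapmer 1, gapmer 2, gapmer 1+2 and scrambled from left to right in each experiment. The LINC00158 treated groups lie below their scrambled group in most panels, except for the first gapmer 1 array, which lies close to the scrambled arrays, and the DNAJB9 scrambled groups differ between the experiments (12.08, 10.59 and 8.75).

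LINC00158 was the experiment with the largest changes of these genes. SEC61B, HSPA5, ERN1, XBP1 and ATF6 were lower with LINC00158 gapmers, with SEC61B 4.48 to 5.28 times lower and called in all 3 treatments. None of the 10 genes was called higher, beside 4.54%, 6.89% and 6.19% of all units. With shares this small, no call among 10 genes does not set them apart. Of the 10 genes, 1 was called lower with gapmer 1 (SEC61B), 4 with gapmer 2 (SEC61B, HSPA5, XBP1 and ATF6) and 5 with gapmer 1+2 (the same 4 and ERN1). Over all units tested, 6.28%, 10.5% and 8.82% were called lower in these treatments. The 3 gapmer arrays lay below all 3 scrambled arrays for 2, 9 and 8 of the 10 genes, and for 16.6%, 25.4% and 25.1% of all units. Bright units, as most of the 10 are, fell further than all units here, as given below. Their own share without overlap was not counted. A call is a Benjamini-Hochberg adjusted p under 0.05 over all units tested with limma.

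SEC61B encodes the beta subunit of the SEC61 channel, through which new proteins enter the ER. Its log2 signal was 9.75, 7.74 and 8.27 on the gapmer 1 arrays, 8.65, 8.30 and 8.22 with gapmer 2 and 8.78, 8.39 and 8.71 with gapmer 1+2, against 11.32, 10.61 and 10.44 with scrambled gapmer. All 9 treated arrays lay below all 3 scrambled arrays. Against scrambled gapmer this was −2.20, −2.40 and −2.16 (SE 0.43 each, adjusted p = 0.0135, 0.00729 and 0.0114). After quantile normalization of the 12 arrays, which gives every array the same distribution and calls 3.61%, 6.23% and 5.20% of all units lower, they were −1.67, −1.76 and −1.56 (adjusted p = 0.0132, 0.00801 and 0.0132). With gapmer 2 and gapmer 1+2 the call held when any 1 of the 6 arrays was left out. With gapmer 1 it was lost without replicate 3 of gapmer 1 (adjusted p = 0.0527) or scrambled replicate 1 (adjusted p = 0.0536).

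HSPA5 encodes BiP, the main ER chaperone, which also holds the sensors inactive. It read 13.05, 11.11 and 11.59 with gapmer 1, 11.41, 11.37 and 11.45 with gapmer 2 and 11.42, 11.41 and 11.35 with gapmer 1+2, against 13.54, 13.22 and 12.90 with scrambled gapmer. The gapmer 2 and gapmer 1+2 arrays lay within a narrow band below every scrambled array, and the first gapmer 1 array lay among the scrambled arrays. The log2 changes of HSPA5 were −1.30, −1.81 and −1.83 (SE 0.39, adjusted p = 0.0547, 0.0138 and 0.0150), and −0.59, −1.0 and −1.14 after quantile normalization (adjusted p = 0.163, 0.0276 and 0.0186). The gapmer 2 call was lost without scrambled replicate 1 (adjusted p = 0.0520), and that of gapmer 1+2 without it or without replicate 2 of gapmer 1+2 (adjusted p = 0.0561 and 0.0505).

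ERN1, the kinase and RNase that senses ER stress, read 12.98, 10.30 and 10.59 with gapmer 1, 11.19, 10.77 and 10.92 with gapmer 2 and 10.73, 10.62 and 11.13 with gapmer 1+2, against 12.96, 12.65 and 12.29 with scrambled gapmer. The other gapmer 1 arrays were as low as the arrays of gapmer 2 and gapmer 1+2, whereas the first was above every scrambled array. Its changes were −1.34, −1.67 and −1.81 (SE 0.55, adjusted p = 0.129, 0.0568 and 0.0484), and −0.65, −0.88 and −1.14 after quantile normalization, none of them called. The gapmer 1+2 call did not survive the loss of any of the 6 arrays (adjusted p 0.0759 to 0.137).

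XBP1, the transcription factor whose messenger RNA ERN1 splices, read 9.50, 8.27 and 8.80 with gapmer 1, 8.36, 8.38 and 8.42 with gapmer 2 and 8.53, 8.48 and 8.90 with gapmer 1+2, against 9.56, 9.43 and 9.70 with scrambled gapmer. A single unit per gene cannot tell the spliced from the unspliced XBP1 messenger RNA, so this is total XBP1. Total XBP1 gave log2 changes of −0.71, −1.18 and −0.93 (SE 0.27, adjusted p = 0.109, 0.0172 and 0.0426), and −0.24, −0.63 and −0.42 after quantile normalization, none of them called. The gapmer 2 call was lost without replicate 2 of gapmer 2 or scrambled replicate 1 (adjusted p = 0.0512 and 0.0519), and the gapmer 1+2 call without any 1 of its 6 arrays.

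ATF6, the sensor that is cut to a transcription factor, read 10.44, 9.56 and 9.22 with gapmer 1, 9.82, 9.46 and 9.26 with gapmer 2 and 10.00, 9.54 and 9.32 with gapmer 1+2, against 10.51, 10.64 and 10.81 with scrambled gapmer. All treated arrays were below the scrambled arrays. Its changes were −0.91, −1.14 and −1.03 (SE 0.31, adjusted p = 0.0752, 0.0287 and 0.0440), and −0.31, −0.45 and −0.42 after quantile normalization, none of them called. The gapmer 2 call was lost without any 1 scrambled array or replicate 2 or 3 of gapmer 2, and the gapmer 1+2 call without any 1 of its 6 arrays.

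The other 5 genes were not called in this experiment. DNAJB9, a co-chaperone of HSPA5, gave log2 changes of −0.56, −1.02 and −1.24, with adjusted p = 0.0512 for gapmer 1+2. HERPUD1, which helps bring misfolded proteins to degradation, gave −0.40, −0.83 and −0.89, and the disulfide isomerase PDIA4 gave −0.56, −0.72 and −0.46. SDF2L1, which forms a complex with the co-chaperone DNAJB11, gave −0.42, −0.53 and −0.52. The dim HSP90B1 unit gave −0.32, 0.51 and −0.18. The bright unit shared with MIR3652 read 13.10 ± 1.43, 12.15 ± 0.26 and 12.22 ± 0.11, against 14.62 ± 0.33 with scrambled gapmer (SD, n = 3), and was not named.

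Leaving out the first gapmer 1 array raised the number of calls. Of the 10 genes, 9 were then called lower with gapmer 1, 8 with gapmer 2 and 7 with gapmer 1+2, and among all units 17.2%, 16.0% and 14.6% were called lower. With gapmer 1, all but HSP90B1 were called; SEC61B changed by −2.79 (adjusted p = 0.000410), ERN1 by −2.19 (adjusted p = 0.000556) and HSPA5 by −1.87 (adjusted p = 0.000635). After quantile normalization of the remaining arrays 3, 4 and 3 genes were called lower, beside 8.28%, 8.65% and 7.51% of all units. Those were SEC61B, HSPA5 and ERN1 in every treatment, and XBP1 with gapmer 2. The array was left out for lying near the scrambled arrays, so larger gapmer 1 changes follow from that choice and add no support. It is in neither the gapmer 2 nor the gapmer 1+2 group, so on the deposited values changes there stayed the same and only the shared SE fell. For HSPA5 with gapmer 2 the change was −1.81 with and without it, and the SE 0.39 and 0.20.

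Bright units as a whole were lower in the LINC00158 treatments. The 4027 units whose mean lay in the range of the 8 brighter genes (8.77 to 12.44, a range chosen after seeing the data) had a median change of −0.71, −0.83 and −0.69, and 17.9%, 34.0% and 24.1% of them were called lower. Over all units tested the median change was −0.11, −0.10 and −0.11. The median change of the 10 genes was −0.63, −1.08 and −0.98. After quantile normalization the median of the 4027 units was −0.11, −0.15 and −0.10 and that of the 10 genes −0.28, −0.43 and −0.42. Without the first gapmer 1 array, 58.0%, 51.5% and 43.8% of the 4027 units were called lower. The B-cell markers were lower too, with a mean over 5 markers of 10.78 (gapmer 1), 10.41 (gapmer 2) and 10.44 (gapmer 1+2), against 11.82 in the scrambled group. Without the first gapmer 1 array their median change was −1.60, −1.44 and −1.54, beside −1.02, −1.08 and −0.98 for the 10 genes. With quantile normalization as well it was −0.82, −0.83 and −0.99, beside −0.35, −0.43 and −0.42. The part of the markers in the result was not tested. The part of this shift of bright units in the single gene values was not tested beyond the quantile values given. In bulk RNA, fewer cells with a high level and less RNA per cell cannot be told apart.

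**Figure D2:**
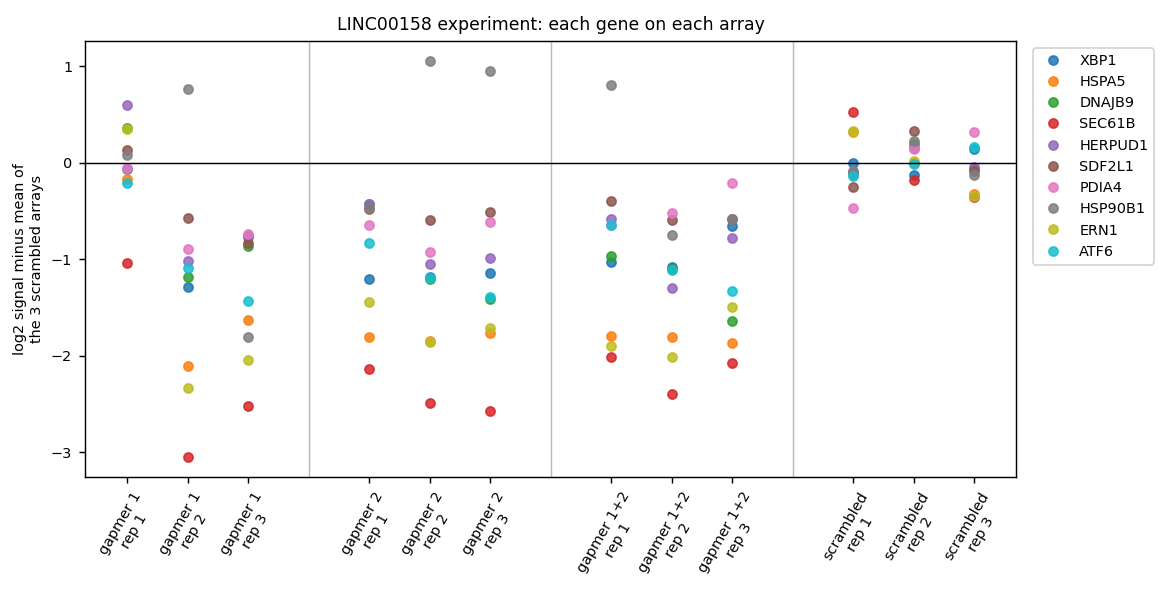
Log2 signal of each of the 10 genes on each array of the LINC00158 experiment, minus the mean of the 3 scrambled arrays, with the treated arrays left of the scrambled arrays. Points are single arrays. On gapmer 1 replicate 1 most genes lie near 0, with SEC61B at 9.75 against a scrambled mean of 10.79, whereas on each of the other 8 treated arrays SEC61B is the lowest of the 10.

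The CYTOR experiment gave 1 call among the 10 genes. ATF6 was lower on the arrays labelled gapmer 2, at 8.79, 9.48 and 9.52, against 11.07, 10.38 and 10.31 with scrambled gapmer, with no overlap between the groups. Its change was −1.32 (SE 0.30, adjusted p = 0.0174), and −1.09 after quantile normalization (adjusted p = 0.0527), which called 2.96%, 3.34% and 2.08% of all units lower in the 3 treatments. The call was also lost without replicate 1 of gapmer 2 (adjusted p = 0.0559) or without scrambled replicate 1 (adjusted p = 0.0573). With gapmer 1 and gapmer 1+2, ATF6 gave −0.55 and −0.70, neither called. In these 3 treatments 11.4%, 12.4% and 8.93% of all units were called lower and 1.77%, 1.84% and 1.54% higher.

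No other gene was called on the arrays labelled with CYTOR gapmers, whether higher or lower. HERPUD1 read 11.33, 10.80 and 10.35 with gapmer 1, against 9.76, 10.67 and 10.11 with scrambled gapmer, a change of 0.65 that was not called. SEC61B gave 0.59, 0.72 and 0.38 and HSPA5 0.31, 0.07 and 0.28 with gapmer 1, gapmer 2 and gapmer 1+2. XBP1 gave values of at most 0.07, at 9.22, 9.15 and 9.16, against 9.15 ± 0.49 with scrambled gapmer (means, SD over n = 3). The first scrambled array read low for DNAJB9, at 11 beside 12.59 and 12.66, and it decides the sign of the small DNAJB9 changes of 0.09, 0.02 and 0.24, which were −0.45, −0.52 and −0.30 without it.

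In the RP11-161H23.5 experiment each treatment had 1 call, and each was a different gene. Over all units, 7.10%, 7.03% and 9.30% were called lower with gapmer 1, gapmer 2 and gapmer 1+2, and 6.19%, 5.20% and 6.98% higher. Beside these shares, 1 call among 10 genes does not set them apart. ATF6 was lower with gapmer 1, at 9.70, 9.53 and 8.63, against 10.69, 10.07 and 10.22 with scrambled gapmer. The change was −1.04 (SE 0.28, adjusted p = 0.0336), and −0.86 after quantile normalization (adjusted p = 0.0258). SDF2L1, an ER-resident chaperone cofactor, was higher with gapmer 2, at 6.44, 6.07 and 5.86, against 5.50, 5.11 and 5.54 with scrambled gapmer. The change was 0.74 (SE 0.21, adjusted p = 0.0455), and 0.79 after quantile normalization (adjusted p = 0.0376). HSPA5 was lower with gapmer 1+2, at 11.48, 11.21 and 11.54, against 11.99, 11.79 and 12.09 with scrambled gapmer. Its change of −0.55 (SE 0.16, adjusted p = 0.0374) was −0.16 after quantile normalization (adjusted p = 0.585). Bright units moved with it, as the 4027 units had a median change of −0.35 with gapmer 1+2 and 21.6% of them were called lower, beside −0.22 and 10.7% with gapmer 1 and −0.08 and 9.98% with gapmer 2. The mean over 5 B-cell markers was 10.20 with gapmer 1+2, 10.77 with gapmer 1 and 10.88 with gapmer 2, against 11.05 with scrambled gapmer, and its part in these results was not tested.

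After quantile normalization 5.75%, 5.34% and 7.43% of all units were called lower in the RP11-161H23.5 treatments, and 6.49% higher with gapmer 2. The SDF2L1 call was lost without any 1 of its 6 arrays (adjusted p from 0.0528 to 0.142), the HSPA5 call without any of them except scrambled replicate 2, and the ATF6 call without gapmer 1 replicate 2 or 3 or scrambled replicate 1 or 3. XBP1 read 8.46, 7.45 and 8.05 with gapmer 1+2, against 9.20, 8.54 and 8.82 with scrambled gapmer, a change of −0.87 that was not called. DNAJB9 gave −0.27, 0.07 and −0.25 and SEC61B −0.33, 0.07 and −0.44, none of them called.

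**Figure D3:**
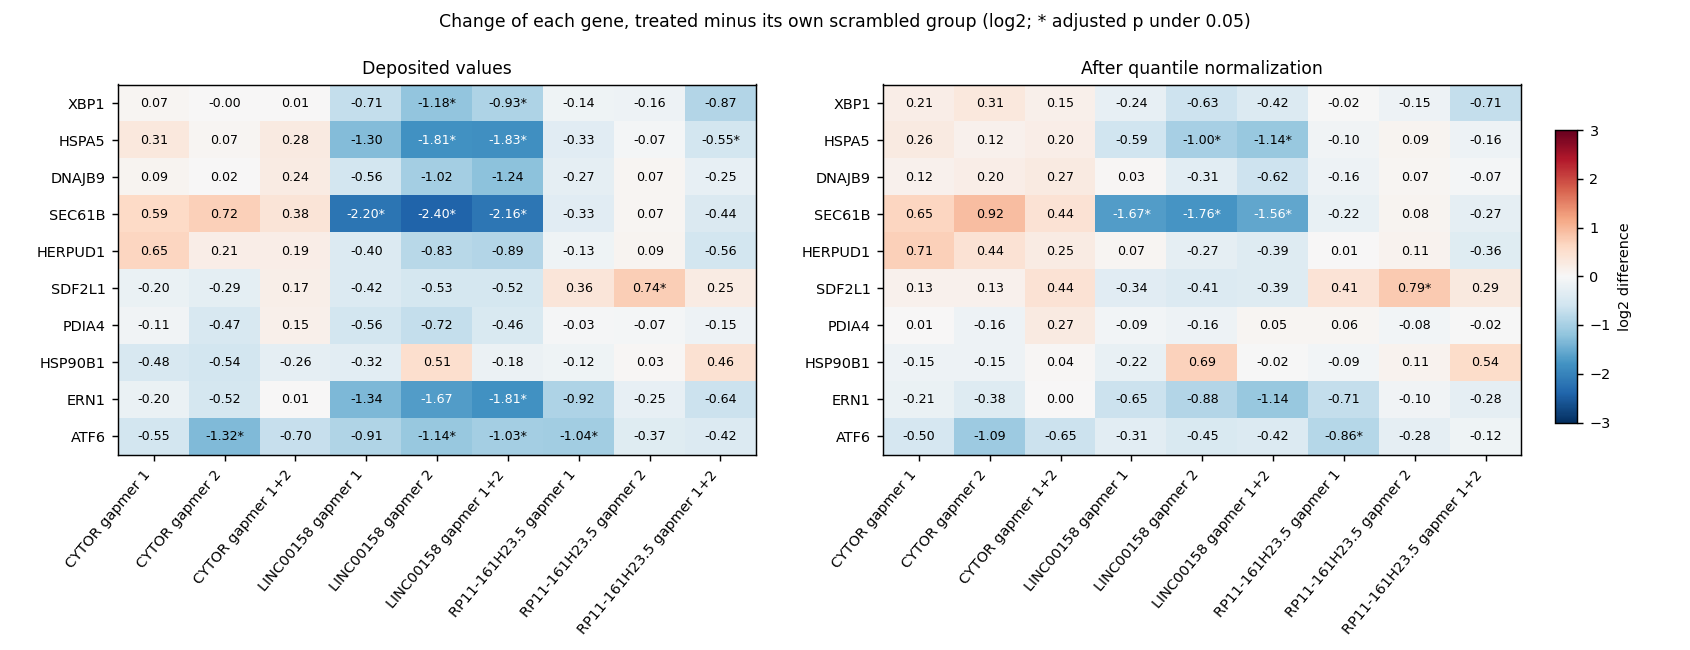
Log2 change of the 10 genes (rows) in 9 treatments (columns), treated minus its own scrambled group, on the deposited values (left) and after quantile normalization (right). Colours run from blue (below 0) through white to red (above 0), and asterisks mark an adjusted p under 0.05. SEC61B is the only gene marked in all 3 LINC00158 treatments in both panels, with −2.20, −2.40 and −2.16 on the deposited values.

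Among the treatments of an experiment, which lie within a set, no gene was called. Gapmer 1 minus gapmer 2, and gapmer 1+2 minus the mean of the single gapmers, were tested in each experiment with limma, and 0 of the 10 genes and 0 units were called in all 6 comparisons. At an unadjusted limma p under 0.05, 3 of the 10 genes passed for RP11-161H23.5 gapmer 1+2 against the single gapmers, the lowest being HERPUD1 (−0.54, adjusted p = 0.458), beside 8.37% of all units. In the CYTOR and LINC00158 comparisons and in RP11-161H23.5 gapmer 1 against gapmer 2 it was 1 gene or none, beside 4.22% to 6.57% of units. The widest gap between LINC00158 gapmers was −0.83, for the dim HSP90B1 unit. These p-values do not show that the gapmers act alike.

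The scrambled groups, all in the same set, differed from each other for some of these genes. The RP11-161H23.5 scrambled arrays read 8.65, 8.82 and 8.78 for DNAJB9, against 11, 12.59 and 12.66 for the CYTOR scrambled arrays, a difference of −3.33 (adjusted p = 0.00930) or 10.1-fold. The same comparison gave −1.84 for SEC61B (8.71 against 10.54, adjusted p = 0.0263) and −1.49 for HSPA5 (11.96 against 13.45, adjusted p = 0.0276). These 3 calls stand beside 1.25% of units called lower and 1.53% called either way, and they stayed called after quantile normalization. Leaving out 1 array at a time left 1 to 4 genes called, with 1 without CYTOR scrambled replicate 2 or 3 and without any 1 of the RP11-161H23.5 scrambled arrays.

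LINC00158 scrambled arrays lay above the RP11-161H23.5 scrambled arrays for 4 genes. SEC61B was higher by 2.08 (adjusted p = 0.0123), DNAJB9 by 1.84 (adjusted p = 0.0339), PDIA4 by 1.32 (adjusted p = 0.0492) and HSPA5 by 1.26 (adjusted p = 0.0275), whereas 3.94% of all units were called higher. After quantile normalization SEC61B alone stayed called (1.59, adjusted p = 0.0233). Leaving out any 1 of the 6 arrays left 0 to 2 genes called, with 0 without RP11-161H23.5 scrambled replicate 2 or 3, 1 without its replicate 1 or without LINC00158 scrambled replicate 1 or 2, and 2 without LINC00158 scrambled replicate 3. Between the LINC00158 and CYTOR scrambled arrays 0 of the 10 genes and 0 units were called by limma, and DNAJB9 (−1.49, adjusted p = 0.342) and HERPUD1 (−0.66, adjusted p = 0.452) had an unadjusted p under 0.05. The level of DNAJB9 with scrambled gapmer was 10.59 in the LINC00158 experiment, 8.75 in the RP11-161H23.5 experiment and 12.08 in the CYTOR experiment, a spread larger than its change in any treatment.

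Whether a gene's mean change over the 3 treatments differed between experiments was tested in a fit of all 36 arrays. SEC61B had a mean change of −2.26 in the LINC00158 experiment, against 0.56 in the CYTOR experiment (difference −2.82, SE 0.44, adjusted p = 3.37e-05) and −0.23 in the RP11-161H23.5 experiment (difference −2.02, adjusted p = 0.00512). HSPA5 had a mean change of −1.65 in the LINC00158 experiment, against 0.22 in the CYTOR experiment (difference −1.87, adjusted p = 0.000283) and −0.32 in the RP11-161H23.5 experiment (difference −1.33, adjusted p = 0.0173). XBP1, HERPUD1 and ERN1 also differed between LINC00158 and CYTOR, by −0.96, −1.06 and −1.37 (adjusted p = 0.0369, 0.0275 and 0.0465), and SDF2L1 between LINC00158 and RP11-161H23.5, by −0.94 (adjusted p = 0.0415). Called lower in the same fit were 8.70% of all units for LINC00158 minus CYTOR and 5.14% for LINC00158 minus RP11-161H23.5. After quantile normalization the HSPA5, SEC61B and SDF2L1 differences stayed called and those of XBP1, HERPUD1 and ERN1 did not (adjusted p = 0.0616, 0.0736 and 0.168). All 8 stayed called without the first LINC00158 gapmer 1 array. Between RP11-161H23.5 and CYTOR no gene was called, beside 19.0% of all units called either way. Each difference compares 2 sets of treated arrays, so set and target cannot be told apart. It also includes the difference between the scrambled groups of the experiments. For LINC00158 minus RP11-161H23.5 that was 2.08 for SEC61B, 1.26 for HSPA5 and 0.77 for SDF2L1 (the last not called). Treated group means of these 2 experiments lay at 8.39 to 8.63 and 8.27 to 8.77 for SEC61B, and at 11.39 to 11.92 and 11.41 to 11.88 for HSPA5. For LINC00158 minus CYTOR the scrambled difference was 0.25, −0.23, 0.41, −0.66 and 0.34 for SEC61B, HSPA5, XBP1, HERPUD1 and ERN1, none called. Each tested difference is the difference of the treated means minus that of the scrambled means. Why the scrambled groups differ was not tested.

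The other genes of the ER were counted in 5 lists by role, chosen with results of these data known. Without the first gapmer 1 array as well as with it, every called gene of the 5 lists was lower in the LINC00158 treatments on the deposited values. With gapmer 2, 5 of 11 measured sensor and PERK-branch genes were called lower, 6 of 19 chaperones and oxidoreductases, 6 of 16 genes of ER-associated degradation, 9 of 28 genes of the translocon, targeting and glycosylation and 6 of 18 genes of ER export, beside 10.5% of all units. Of the 4027 bright units, 34.0% were called lower with gapmer 2. With gapmer 1+2 the list counts were 1, 5, 5, 3 and 6, beside 8.82% of all units and 24.1% of the bright units. With gapmer 1 the counts were 1, 2, 3, 1 and 2, beside 6.28% and 17.9%. Without the first gapmer 1 array they were 7, 13, 10, 19 and 12 with gapmer 1. They were then 6, 15, 10, 21 and 11 with gapmer 2 and 6, 11, 10, 17 and 13 with gapmer 1+2. These counts stand beside 17.2%, 16.0% and 14.6% of all units and 58.0%, 51.5% and 43.8% of the 4027 bright units. The median changes with gapmer 2 lay between −0.94 and −0.73 in the 5 lists, beside −0.83 for the 4027 units of like brightness. After quantile normalization of the 12 arrays 2, 2, 4, 4 and 2 genes were called lower with gapmer 2, beside 6.23% of all units, and 1 gene of the translocon list higher.

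Named examples by role follow, with log2 changes in gapmer 1, gapmer 2 and gapmer 1+2. NPLOC4 and UFD1 are partners of VCP in pulling misfolded proteins out of the ER. NPLOC4 gave −1.73, −2.10 and −1.80 (7.10, 6.72 and 7.03, against 8.83 with scrambled gapmer), called in all 3 treatments. UFD1 gave −1.74, −2.60 and −1.76, and was called with gapmer 2 and gapmer 1+2. SRP9, a subunit of the signal recognition particle, gave −1.55, −1.88 and −1.59, called in all 3 treatments, and TRAM2, a translocation factor, gave −1.54, −2.43 and −2.30, called with gapmer 2 and gapmer 1+2. SAR1A, the GTPase that starts the coat of export vesicles, gave −1.43, −1.76 and −1.85, called in all 3 treatments and also after quantile normalization (−0.74, −0.96 and −1.17). HYOU1, an ER chaperone of the HSP70 family, gave −1.29, −1.42 and −1.31, called on the deposited values in all 3 and in none after quantile normalization. EIF2AK3 (PERK itself) gave −0.95, −0.84 and −0.65, called with gapmer 1 and gapmer 2, and in none after quantile normalization. There NPLOC4, SRP9 and TRAM2 kept their calls and UFD1 kept that of gapmer 2 alone.

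Other genes called lower with LINC00158 gapmers included the export factors SEC13 (−1.46, −1.58 and −1.52, called in all 3 treatments), TMED10 (−1.38, −1.51 and −1.47, called with gapmer 2 and gapmer 1+2) and SEC23B (−0.61, −1.0 and −1.04, called with the same 2). UGGT1, which checks the folding of glycoproteins, gave −1.27, −0.94 and −0.93, called in all 3 treatments, and in none after quantile normalization. TXNDC11 (−0.96, −1.76 and −1.75) and CRELD2 (−0.66, −1.32 and −1.31) were called with gapmer 2 and gapmer 1+2, before and after quantile normalization. UBE2J1, a ubiquitin-conjugating enzyme of ERAD (ER-associated degradation), gave −1.21, −1.61 and −1.38, called in all 3 treatments, and AUP1 gave −1.38, −1.59 and −1.62, called with gapmer 2 and gapmer 1+2. The translocon-associated protein SSR2 gave −1.17, −1.55 and −1.43, called with gapmer 2 and gapmer 1+2, also after quantile normalization. There TMED10 and SEC23B kept no call, SEC13 kept that of gapmer 2 and AUP1 that of gapmer 1+2. UBE2J1 kept those of gapmer 2 and gapmer 1+2.

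PPP1R15A (GADD34), which restores translation, gave −1.0, −1.40 and −1.57 and was called with gapmer 2 and gapmer 1+2, also after quantile normalization. Of 6 plasma cell genes, 2, 3 and 2 were called lower with LINC00158 gapmer 1, gapmer 2 and gapmer 1+2, beside 6.28%, 10.5% and 8.82% of all units and 17.9%, 34.0% and 24.1% of the 4027 bright units. PRDM1 (Blimp-1), the repressor that drives plasma cell fate, gave −1.65, −1.98 and −1.86 (6.90, 6.57 and 6.69, against 8.54 with scrambled gapmer), and SDC1, a plasma cell surface proteoglycan, gave −0.89, −1.0 and −0.89. Both were called in all 3 treatments, before and after quantile normalization.

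**Figure D4:**
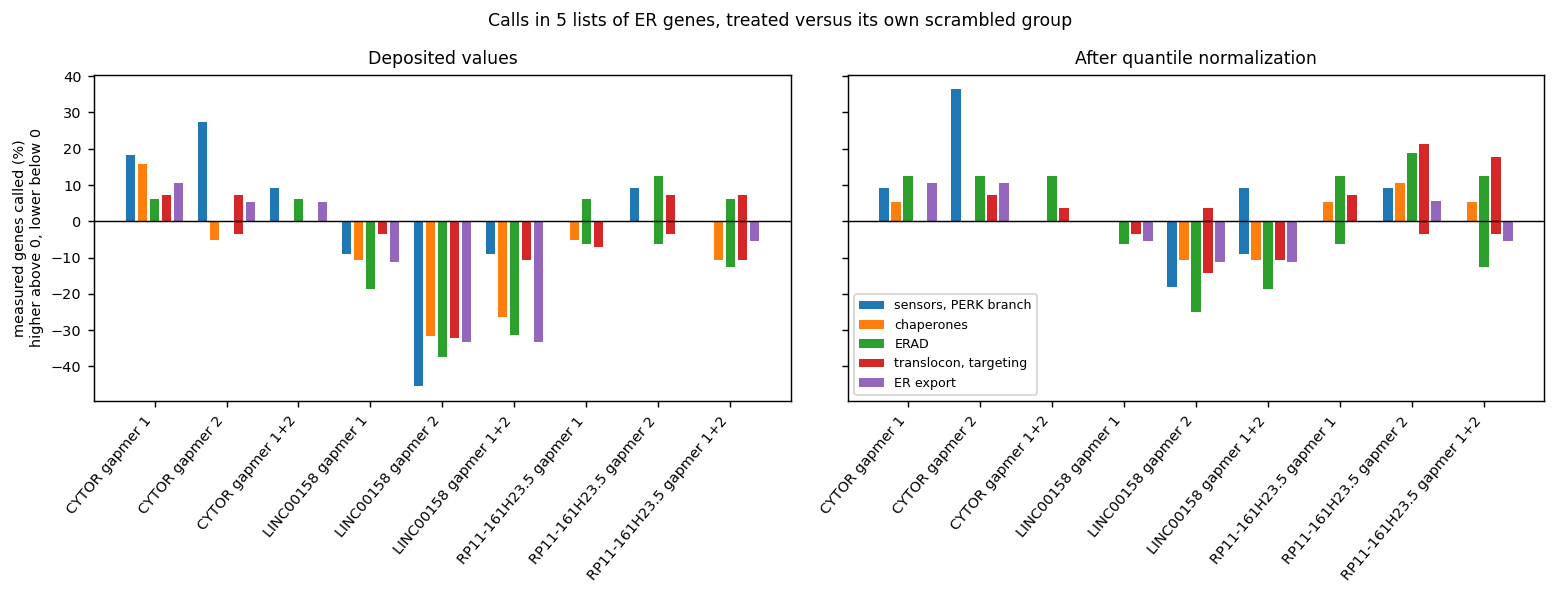
Share of measured genes called in 5 lists of other ER genes, in 9 treatments against their own scrambled groups, on the deposited values (left) and after quantile normalization (right). Bars above 0 are genes called higher and bars below 0 are genes called lower, as a percent of the list. On the deposited values the LINC00158 bars point down only (6 of 19 to 5 of 11 genes with gapmer 2), and with gapmer 2 each downward bar is shorter after quantile normalization, at 2, 2, 4, 4 and 2 genes. On the deposited values 10.5% of all units and 34.0% of the 4027 bright units were called lower with LINC00158 gapmer 2.

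In the CYTOR experiment calls in the 5 lists were mostly higher, beside 1.77%, 1.84% and 1.54% of all units called higher. Of the 4027 bright units, 2.68%, 1.71% and 1.66% were called higher. The lists, in the order above, had 11, 19, 16, 28 and 19 measured genes. Of these, 2, 3, 1, 2 and 2 were called higher with gapmer 1, 3, 0, 0, 2 and 1 with gapmer 2 and 1, 0, 1, 0 and 1 with gapmer 1+2. Called lower with gapmer 2 were 1 chaperone, the dim FKBP2 (−0.93, adjusted p = 0.0421), and 1 translocon gene. ATF4, the transcription factor of the PERK branch, gave 0.70, 0.71 and 0.60 (15.54, 15.55 and 15.44, against 14.84 with scrambled gapmer), called in all 3 treatments, but after quantile normalization only with gapmer 2 (0.70, adjusted p = 0.0323). SESN2, a stress gene downstream of ATF4, gave 0.89, 0.98 and 0.38 and was called with gapmer 1 and gapmer 2. Over the 11 measured genes of that list the median change was 0.40, 0.30 and 0.10, and some of its genes, downstream of ATF4 too, lay below 0, none of those called. LMAN1, a cargo receptor for ER export, gave 0.83, 0.90 and 0.72 and was called in all 3 on the deposited values, and after quantile normalization with gapmer 2. SSR2, a translocon-associated protein, gave 0.77, 0.81 and 0.64, called with gapmer 1 and gapmer 2, and after quantile normalization with gapmer 2.

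Chaperones called higher with CYTOR gapmer 1 were PDIA6 (1.09), PPIB (0.88) and CALR (0.54), each called with gapmer 1 only. Of these PDIA6 alone stayed called after quantile normalization. FAF2, a factor of ER-associated degradation, gave 1.25, 0.29 and 0.78 and was called with gapmer 1 and gapmer 1+2. Among the plasma cell genes MZB1, a chaperone cofactor of B-lineage cells, gave 0.94, 0.66 and 1.06, called with gapmer 1 and gapmer 1+2. PRDM1 gave −1.04, −1.46 and −1.43, called with gapmer 2 and gapmer 1+2 on the deposited values only.

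In the RP11-161H23.5 experiment 0 to 2 genes of a list were called higher and 0 to 3 lower in any treatment, beside 6.19%, 5.20% and 6.98% of all units called higher and 7.10%, 7.03% and 9.30% lower. The list with the most calls was that of the translocon with gapmer 1+2, with 2 of 28 genes higher and 3 lower, and 5 higher and 1 lower after quantile normalization. SRP14, the other Alu-domain subunit of the signal recognition particle, gave −0.61, −1.09 and −1.86 (13.79, 13.31 and 12.53, against 14.40 with scrambled gapmer), with adjusted p = 0.000237 for gapmer 1+2. UBE2J1 gave −1.13, −0.99 and −1.23, called in all 3 treatments, and after quantile normalization with gapmer 1 and gapmer 1+2. EDEM3, which trims sugars of misfolded proteins, gave 1.07, 0.89 and 0.71, called with gapmer 1 and gapmer 2, and DERL3 gave 0.38, 0.93 and 0.97, called with gapmer 2 and gapmer 1+2. SRPRA, the receptor for the signal recognition particle, gave 0.38, 0.79 and 0.73, called with gapmer 2 and gapmer 1+2. TRIB3, a target of the PERK branch, was called higher with gapmer 2 (0.89, adjusted p = 0.0257). HYOU1 was called lower with gapmer 1 (−0.74), and CALR (−0.75), ERO1B (−0.78) and MCFD2 (−1.18) with gapmer 1+2, and of these MCFD2 alone stayed called after quantile normalization. PRDM1 gave −1.13, −0.54 and −1.55, called with gapmer 1 and gapmer 1+2, and stayed called there after quantile normalization.

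Across the 36 arrays, after quantile normalization of all of them, the profiles of HSPA5 and several of the 10 genes ran alike. The arrays share groups and sets, so these Pearson correlations are descriptions. HSPA5 correlated at r = 0.91 with SEC61B, 0.88 with DNAJB9, 0.88 with HERPUD1 and 0.83 with SDF2L1, but at 0.53 with XBP1, 0.51 with PDIA4, 0.49 with ERN1, −0.12 with ATF6 and −0.19 with the dim HSP90B1 unit. Among 21242 named genes, those most like HSPA5 were SPNS1 (0.93), PRNP (0.92), MAN1B1-DT, PPP1R15A and SEC61B (0.91 each). Those most like XBP1 were EGLN2 (0.85), TRAPPC5 (0.80), MIR4674, PIM2 and PLEKHO1 (0.79 each). Within groups, after taking each group's mean away, HSPA5 correlated at 0.40 with SEC61B, 0.48 with DNAJB9, 0.52 with HERPUD1, 0.42 with SDF2L1, 0.26 with ERN1 and 0.22 with PDIA4, but at −0.07 with XBP1, −0.13 with ATF6 and −0.20 with HSP90B1.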

How the data were processed

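The deposited values are log2 signals of 135750 units on 36 arrays, made by the authors. The submitters' processing notes name RMA and Affymetrix Expression Console, with no version. Each sample was grouped by its labels. From these log2 values limma 3.58.1 (R 4.3.3) was fitted within each experiment on 12 arrays, with units under the median mean signal left out (67877 to 67896 units kept), and p-values were two-sided and adjusted by Benjamini-Hochberg over all units kept, with a threshold of 0.05. The scrambled groups were compared in a fit of 9 arrays and experiments in a fit of all 36. An exact permutation test of 3 against 3 arrays cannot go below 0.1, so none is given. The number of arrays limits the precision. How the 4 sets of arrays that share exact values came about is not given in the sources used here. Quantile normalization of the 12 arrays was run beside the deposited values. Same-numbered replicates deviated together with r from −0.18 to 0.19, over 0.1 in 1, 2 and 1 of 18 pairs per experiment, so the numbers were not taken as pairs. Beyond the 10, at most 4 genes per list and experiment were named, those with the largest mean size of change among genes called the same way in 2 or more treatments (or in 1 where none was), and the 5 genes most like XBP1 and HSPA5. The 10 genes and the lists were chosen with earlier results of these data known. The fit was tried on simulated data for the CYTOR gapmer 1 comparison only. These had independent noise, with no array sets, shift of bright units or array standing apart, so those features were not covered. Other settings are given in the closing section.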

Additional observations from a re-analysis of the deposited data

Results flagged for a closer look

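The mean change over the 3 treatments differed between experiments for 8 gene and experiment pairs, by the limma test of the difference itself in the fit of 36 arrays. Between LINC00158 and CYTOR the difference was −2.82 for SEC61B, −1.87 for HSPA5, −1.37 for ERN1, −1.06 for HERPUD1 and −0.96 for XBP1, with mean changes below 0 in the LINC00158 experiment for all 5. Between LINC00158 and RP11-161H23.5 it was −2.02 for SEC61B, −1.33 for HSPA5 and −0.94 for SDF2L1, whose mean change was −0.49 in the LINC00158 experiment and 0.45 in the RP11-161H23.5 experiment. The scrambled groups of these 2 experiments themselves differed by 2.08, 1.26 and 0.77 for the same genes (LINC00158 minus RP11-161H23.5). Each flagged difference is the difference of the treated means minus that of the scrambled means. Treated group means lay at 8.39 to 8.63 (LINC00158) and 8.27 to 8.77 (RP11-161H23.5) for SEC61B. For HSPA5 they lay at 11.39 to 11.92 and 11.41 to 11.88, and for SDF2L1 at 5.62 to 5.73 and 5.63 to 6.12. Why the scrambled groups differ was not tested. The treated arrays of each target form a set of their own, so set and target cannot be told apart. Without the first LINC00158 gapmer 1 array, DNAJB9 between LINC00158 and CYTOR (−1.21, adjusted p = 0.0270) and ERN1 between LINC00158 and RP11-161H23.5 (−1.29, adjusted p = 0.0151) were called as well. That array was left out for lying near the scrambled arrays, so larger differences come with the choice.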

How the results depend on the processing

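Counts of calls, for the 10 genes and for all units, depended on the settings, and the cause was not tested unless a smaller number of units or arrays is named. With quantile normalization, 2 of the 10 genes were called with LINC00158 gapmer 2 and 2 with gapmer 1+2 (4 and 5 on the deposited values), 0 with CYTOR gapmer 2, 0 with RP11-161H23.5 gapmer 1+2, and 1 between the LINC00158 and RP11-161H23.5 scrambled groups; units called for CYTOR gapmer 1, gapmer 2 and gapmer 1+2 were 4073, 4596 and 2904 (8909, 9657 and 7104 as deposited). With all 36 arrays in one fit, the genes called were 4 for LINC00158 gapmer 1, 7 for gapmer 2, 0 for RP11-161H23.5 gapmer 2 and 5 between the RP11-161H23.5 and CYTOR scrambled groups, and units called were 13330 and 15968 for LINC00158 gapmer 1 and gapmer 1+2 and 10786 for CYTOR gapmer 1+2. With only the groups compared (6 arrays), the genes called were 7 for LINC00158 gapmer 2 and 0 for LINC00158 gapmer 1, CYTOR gapmer 2 and each RP11-161H23.5 treatment, and units called were 164 for LINC00158 gapmer 1, 4729, 2484 and 3665 for CYTOR gapmer 1, gapmer 2 and gapmer 1+2 and 5782 for RP11-161H23.5 gapmer 1+2. A filter at the 75th percentile, which tests fewer units, called 2 genes for RP11-161H23.5 gapmer 1+2, and 4554, 5288 and 3340 units for CYTOR, 4795 for LINC00158 gapmer 1 and 5376, 4967 and 7340 for RP11-161H23.5. No filter called 3 genes for LINC00158 gapmer 1+2 and 0 for RP11-161H23.5 gapmer 2 and gapmer 1+2, and a trended, robust variance called 2 for LINC00158 gapmer 1 and 0 for the same RP11-161H23.5 treatments. The replicate block called 0 genes for RP11-161H23.5 gapmer 2 and 1 between the RP11-161H23.5 and CYTOR scrambled groups, and moved no other count of calls by over 1.5 times; the numbers did not pair the arrays. Without the first LINC00158 gapmer 1 array (added after seeing the data), 8 genes were called with LINC00158 gapmer 2 and 15826 units with gapmer 1+2, and with quantile normalization as well, 3 genes each with gapmer 1 and gapmer 1+2 and 12533 units with gapmer 1. Leaving out 1 array at a time gave 0 to 9, 1 to 4 and 1 to 2 genes for LINC00158 gapmer 1, gapmer 2 and gapmer 1+2, 0 to 1 for CYTOR gapmer 2, 0 to 1, 0 to 0 and 0 to 2 for RP11-161H23.5 gapmer 1, gapmer 2 and gapmer 1+2, 1 to 4 between the RP11-161H23.5 and CYTOR scrambled groups and 0 to 2 between the LINC00158 and RP11-161H23.5 scrambled groups. Units called were then 2148 to 17391, 4809 to 7265 and 3213 to 6355 for LINC00158, 4405 to 6823, 5950 to 7707 and 3088 to 4845 for CYTOR and 4983 to 5761, 4394 to 5210 and 6784 to 10568 for RP11-161H23.5. Quantile normalization turned the sign of changes that were not called, namely DNAJB9 (0.03) and HERPUD1 (0.07) with LINC00158 gapmer 1, PDIA4 (0.05, also without the first gapmer 1 array) with LINC00158 gapmer 1+2, HERPUD1 (0.01) and PDIA4 (0.06) with RP11-161H23.5 gapmer 1, HSPA5 (0.09) with RP11-161H23.5 gapmer 2, and PDIA4 (0.01), SDF2L1 (0.13 with gapmer 1 and with gapmer 2), XBP1 (0.31, gapmer 2) and HSP90B1 (0.04, gapmer 1+2) in the CYTOR experiment. Leaving out 1 array turned other uncalled changes. In the CYTOR experiment the ranges were −0.45 to 0.38, −0.52 to 0.31 and −0.30 to 0.53 for DNAJB9 and −0.14 to 0.34, −0.21 to 0.27 and −0.20 to 0.28 for XBP1 (gapmer 1, gapmer 2, gapmer 1+2), −1.02 to 0.04 and −0.70 to 0.26 for HSP90B1 and −0.27 to 0.06 and −0.01 to 0.32 for PDIA4 (gapmer 1, gapmer 1+2), −0.16 to 0.22 for HSPA5 (gapmer 2), and −0.14 to 0.11 for ERN1, −0.02 to 0.44 for HERPUD1 and −0.07 to 0.36 for SDF2L1 (gapmer 1+2). For HSP90B1 with LINC00158 gapmer 1 and gapmer 1+2 they were −0.87 to 0.42 and −0.67 to 0.11. In the RP11-161H23.5 experiment they were −0.33 to 0.16, −0.38 to 0.11 and −0.45 to 0.04 for PDIA4, −0.40 to 0.41 and −0.14 to 0.32 for HSP90B1 and −0.37 to 0.19 and −0.32 to 0.01 for XBP1 (gapmer 1, gapmer 2), −0.56 to 0.10 for DNAJB9 (gapmer 1), and −0.03 to 0.18 for HERPUD1 and −0.04 to 0.18 for SEC61B (gapmer 2). The mean of all units per gene was not run, as each gene had 1 unit.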
